A study of Mus musculus with 8 samples.

Results

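Transcripts of the lipid droplet surface and of its lipases were followed in mouse liver, taken by symbol from a fixed list. They were the perilipins Plin2, Plin3, Plin4 and Plin5, the CIDE genes Cidea, Cideb and Cidec, the lipase inhibitor G0s2, and the lipases Pnpla2 and Pnpla3. All 10 members were present among the 35204 gene symbols of the deposited table. Messenger RNA was measured by poly-A RNA sequencing in 8 liver libraries, all from C57BL/6J mice whose genotype is given as wild type. The 3 control libraries came from untreated mice. The 5 other libraries (the TAZ-CCl4 group) came from mice given TAZ S89A, a form of the transcriptional coactivator TAZ that lacks a phosphorylation site used by the Hippo pathway, under the EF1a promoter by HTVI. HTVI is the usual short form of hydrodynamic tail vein injection, a rapid large-volume injection after which mostly hepatocytes take up the plasmid. The same mice received carbon tetrachloride (CCl4), a liver toxin, 30 times, at 3 injections per week over 10 weeks. No group received only TAZ S89A or only CCl4, so the effects of the 2 agents cannot be told apart. The sources used here do not give age, sex or whether a piece held tumour.

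A lipid droplet is a core of triglyceride and sterol ester under a phospholipid monolayer that carries its own proteins. Perilipins coat the droplet and govern the access of lipases, CIDE proteins promote droplet fusion and lipid transfer, and PNPLA2 (adipose triglyceride lipase, ATGL) starts the breakdown of stored triglyceride. G0S2 inhibits PNPLA2 and ABHD5 (CGI-58) activates it. In liver these proteins set how much triglyceride is stored, oxidised or loaded onto very low density lipoprotein (VLDL).

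Of the 10 members, 9 had a mean of at least 10 normalised counts over the 8 libraries and were tested with limma on log2(value + 1), with p-values adjusted over all 14171 tested genes and a threshold of 0.05. Plin2, Plin4, Plin5, Cideb and G0s2 fell and Pnpla3 rose. Plin3, Cidec and Pnpla2 did not pass the test, and Cidea was below the filter. The 6 members called compare with 62.3% of all tested genes called in either direction, so a share of that size is not particular to the members. The 5 that fell compare with 29.8% of tested genes lower, and the 1 that rose with 32.4% higher. The median log2 fold change of the 9 members was -1.45, against 0.03 over all tested genes. The groups did not overlap for 5 of the 9 tested members, against 60.1% of tested genes.

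**Figure D1:**
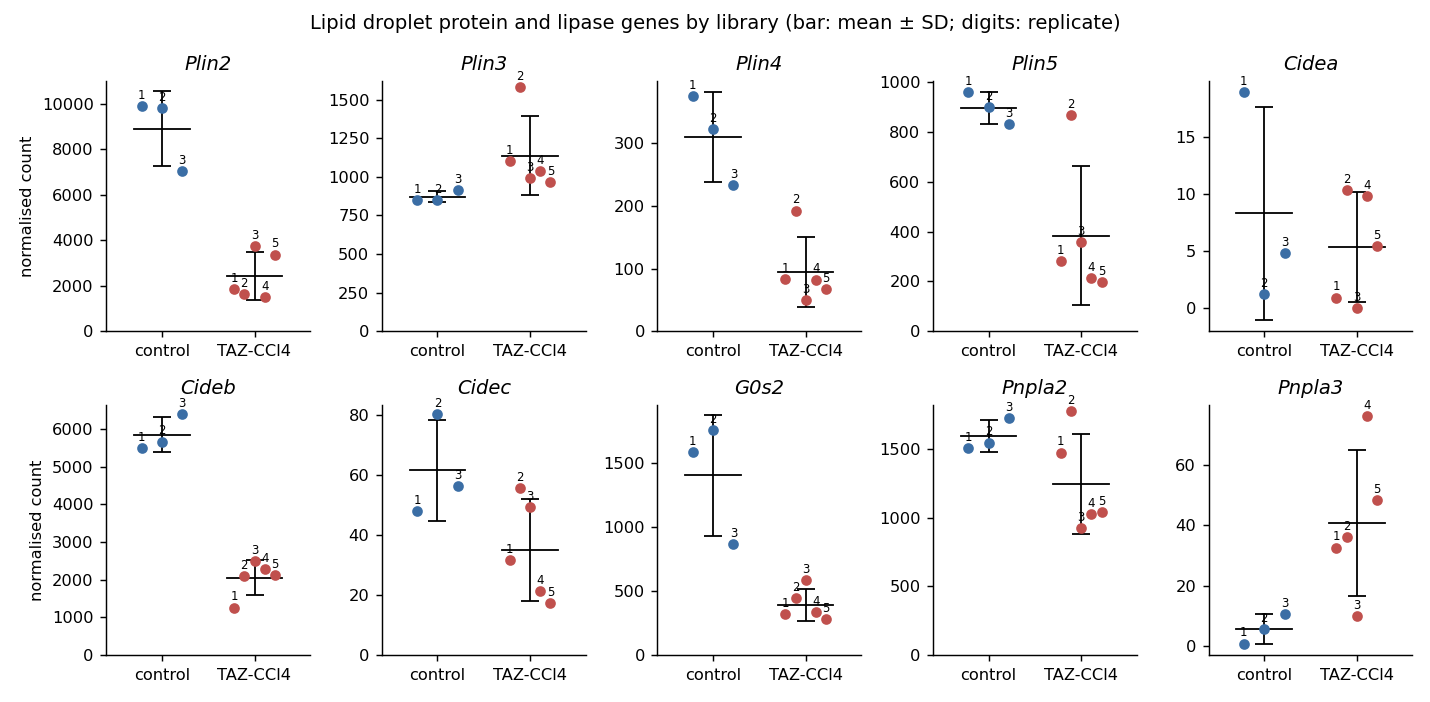
Normalised counts (y axis, linear, 1 scale per gene) of the 10 members in the 3 control and 5 TAZ-CCl4 libraries. Points are libraries with their replicate number, and bars are mean ± SD. Every TAZ-CCl4 value of Plin2, Plin4, Cideb and G0s2 lies below every control value, and replicate 2 stands above the other TAZ-CCl4 libraries for Plin3, Plin4 and Plin5.

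The scaling between libraries bears on every one of these values. Each control library summed to 29.8 to 35.1 M normalised counts, against 12.4 to 14.2 M for each TAZ-CCl4 library. When all libraries were set to equal totals, the median over all tested genes moved to 1.26 on the log2 scale, 76.3% of tested genes were higher and 6.37% lower. At that scaling 3 members were higher (Plin3, Pnpla2 and Pnpla3), 1 was lower (Plin2), and Plin4, Plin5, Cideb, Cidec and G0s2 did not pass the test. The place of the members among all genes moved little. Plin2 fell further than 93.9% of tested genes at the deposited scaling, and 6.22% of tested genes had a lower fold change than Plin2 at equal totals. Relative to the median gene the Plin2 change was -1.99 on the log2 scale at the deposited scaling and -1.98 at equal totals. Directions below are at the deposited scaling, and where a call differs at equal totals this is given with the gene or its list.

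**Figure D2:**
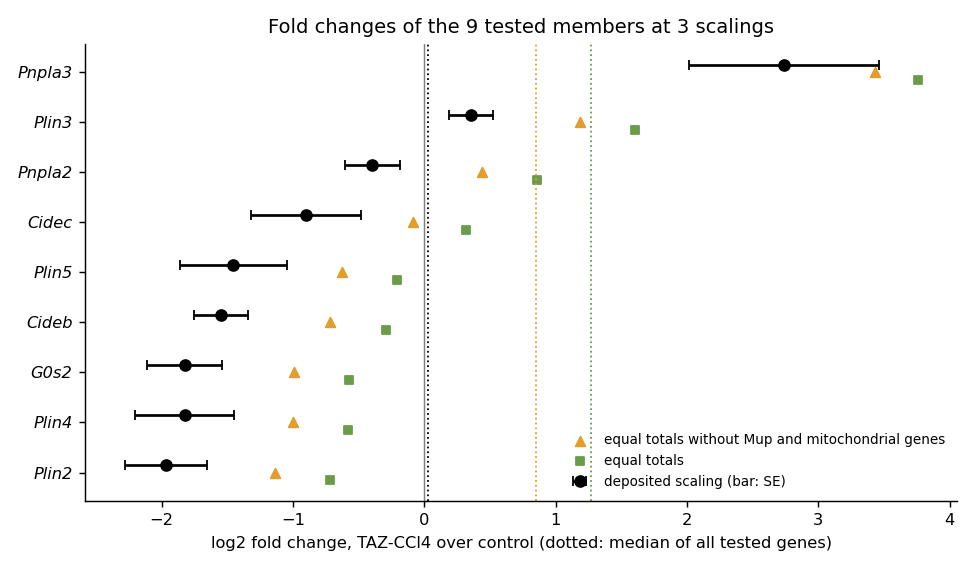
Log2 fold change of TAZ-CCl4 over control (x axis) for the 9 tested members (y axis) at the deposited scaling (circles, bars are SE), at equal totals (squares) and at equal totals computed after removing major urinary protein (Mup) and mitochondrial genes (triangles). Dotted lines mark the median of all tested genes at each scaling, 0.03, 1.26 and 0.85. The members keep nearly the same order, and all of them move to the right with the median.

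Upstream sequence was taken for the members from RefSeq windows on GRCm38.p6, the build also called mm10. Windows were found for 9 members, which have 11 windows in all. Shown are the windows that hold a CCAAT box, the motif bound by NF-Y, because this same short motif lies upstream of 2 perilipins that fell (Plin2 and Plin5), a perilipin that did not pass the test (Plin3) and the lipase that rose (Pnpla3). Each runs from 250 to 51 bases before the RefSeq start, 5′ to 3′ on the strand of the gene, and holds no annotated exon. The RefSeq start of Plin3 lies inside the GENCODE span of that gene. Capitals mark CCAAT or its reverse complement, and AGGTCA or its reverse complement, the core hexamer of nuclear receptor sites such as those of the PPAR family.
Plin2, chr4:86670110-86670309, minus strand: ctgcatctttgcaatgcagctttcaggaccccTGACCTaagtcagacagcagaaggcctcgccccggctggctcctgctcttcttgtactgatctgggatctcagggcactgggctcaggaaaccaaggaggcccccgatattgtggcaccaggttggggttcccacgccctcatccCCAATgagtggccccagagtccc
Plin5, chr17:56117599-56117798, minus strand: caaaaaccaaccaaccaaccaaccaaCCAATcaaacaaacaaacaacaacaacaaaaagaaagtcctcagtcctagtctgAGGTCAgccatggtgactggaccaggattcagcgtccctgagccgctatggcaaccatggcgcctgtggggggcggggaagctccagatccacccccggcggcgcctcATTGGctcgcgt
Plin3, chr17:56290562-56290761, minus strand: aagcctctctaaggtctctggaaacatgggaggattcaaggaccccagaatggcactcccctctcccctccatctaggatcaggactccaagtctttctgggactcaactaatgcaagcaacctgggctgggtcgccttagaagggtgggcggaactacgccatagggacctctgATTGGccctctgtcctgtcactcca
Pnpla3, chr15:84167566-84167765, plus strand: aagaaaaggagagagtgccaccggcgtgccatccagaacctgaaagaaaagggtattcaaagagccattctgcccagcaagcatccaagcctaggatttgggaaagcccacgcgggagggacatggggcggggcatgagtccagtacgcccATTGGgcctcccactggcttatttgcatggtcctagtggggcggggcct

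The CCAAT box began 73 bases before the start of Plin2, 75 before that of Plin3, 99 before that of Pnpla3, and 62 and 224 before that of Plin5. It was present in 28.4% of the 32851 mouse windows searched on both strands. AGGTCA began 218 bases before the start of Plin2 and 170 before that of Plin5, and 11.4% of all windows hold it. GGAATG, the core bound by TEAD factors, the DNA-binding partners of TAZ, was found in 1 of the 11 windows, that of Cidec, 90 bases before the start, and in 10.7% of all windows. CACGTG, an E-box bound by carbohydrate-response and sterol-response factors, was in no member window and in 4.34% of all. A direct repeat of AGGTCA with 1 base between, which contains the hexamer itself, was in no member window and in 0.0244% of all. Each match describes letters in a window and not a bound site.

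Plin2 (mm10 chromosome 4, 86648386 to 86670060) is the main droplet coat protein of hepatocytes. It was at 9884, 9810 and 7020 normalised counts in the controls. The TAZ-CCl4 libraries held 1846, 1640, 3733, 1501 and 3370 in the order of their replicate numbers. Replicates 3 and 5 were the highest of the TAZ-CCl4 group and still lay below the lowest control. The mean went from 8904 ± 1632 (SD, n = 3) to 2418 ± 1050 (SD, n = 5), 3.68-fold lower, with a limma log2 fold change of -1.97 ± 0.31 (SE) and an adjusted p of 3.18e-04. Plin2 was the only member lower at equal totals as well, at -0.72 with a limma adjusted p of 0.0335.

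Plin5 (chromosome 17, 56111601 to 56117596) tethers droplets to mitochondria and is prominent in tissues that oxidise fat. Its control values were 959, 900.4 and 830.2 normalised counts. The TAZ-CCl4 values were 281, 867, 358, 214 and 198. Replicate 2 lay inside the control range and the other 4 far below it, so the groups overlapped through 1 library. The mean went from 897 ± 64.6 (SD, n = 3) to 383 ± 278 (SD, n = 5), and to 262 without replicate 2. The limma log2 fold change was -1.45 ± 0.41 (SE), with an adjusted p of 0.0101, and at equal totals it was -0.21 and did not pass.

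Plin4 (chromosome 17, 56100591 to 56109803), best known from fat and muscle, was the least abundant of Plin2 to Plin5 per length. Control values were 375, 323 and 234 normalised counts, and the TAZ-CCl4 values were 83.3, 192, 50.1, 82.2 and 67.7. The groups did not overlap, and replicate 2 was again the highest of its group. The limma log2 fold change was -1.83 ± 0.38 (SE) with an adjusted p of 0.00179, and -0.58 without passing at equal totals. Exons of Hdgfl2 on the opposite strand overlap exons of Plin4, and the sources used here do not say how strand was used in the counting. Hdgfl2 itself averaged 1027 in the controls and 757 in the TAZ-CCl4 libraries.

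Plin3 (chromosome 17, 56277476 to 56292873), a broadly expressed perilipin that moves from the cytosol to nascent droplets, had its lowest values in the controls. Its 3 controls lay close together at 850, 851 and 915 normalised counts. The TAZ-CCl4 libraries were at 1103, 1583, 992, 1037 and 964, each above every control. The log2 fold change was 0.36 ± 0.17 (SE), and the limma adjusted p of 0.0846 did not pass the threshold. The call depended on the scaling, since Plin3 was higher at equal totals (1.61) and after quantile normalisation (0.65).

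The ratio of Plin3 to Plin2 within a library does not depend on the scaling between libraries beyond the pseudocount. It was 0.0860, 0.0867 and 0.130 in the controls and 0.597, 0.965, 0.266, 0.690 and 0.286 in the TAZ-CCl4 libraries. Every TAZ-CCl4 ratio exceeded every control ratio, a log2 difference of 2.33. The exact two-sided permutation p was 0.0357, the smallest that the 56 splits of 3 and 5 libraries allow, and 0.143 after adjustment over the 8 ratios compared. With 8 ratios at least 6 would have to reach that smallest p for any to pass, so this family could hardly give an adjusted p under the threshold. The ratios Plin5/Plin2 and Plin4/Plin2 overlapped between the groups, with log2 differences of 0.51 (exact permutation p 0.571) and 0.14 (exact permutation p 0.893). Without TAZ-CCl4 replicate 2 the differences were 0.049 for Plin5/Plin2 and -0.26 for Plin4/Plin2.

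Levels of different genes were compared per kb of exon. Plin2 made up 79.0%, 79.7% and 74.6% of the summed signal of Plin2 to Plin5 in the controls. In the TAZ-CCl4 libraries it made up 54.4%, 35.0%, 70.6%, 52.3% and 72.7%, below every control. The share of Plin3 was 6.30% to 9.02% in the controls and 17.4% to 33.5% in the TAZ-CCl4 libraries. At the deposited scaling the 4 perilipins together were at 3249 ± 495 per kb in the controls (SD, n = 3) and 1189 ± 285 in the TAZ-CCl4 libraries (SD, n = 5). These sums depend on the scaling between libraries and were not computed at equal totals. The shares do not depend on it, and Plin3 was a larger part of the sum in the TAZ-CCl4 libraries. Plin5 held 12.3% to 14.8% in the controls and 31.1% in TAZ-CCl4 replicate 2, against 7.17% to 13.9% in the other TAZ-CCl4 libraries. Using the longest transcript of each gene in place of all its exons, the mean Plin2 share in the TAZ-CCl4 libraries was 69.4% rather than 56.99%. Control shares with these lengths are not given here, so the 69.4% cannot be set against the control shares above.

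**Figure D3:**
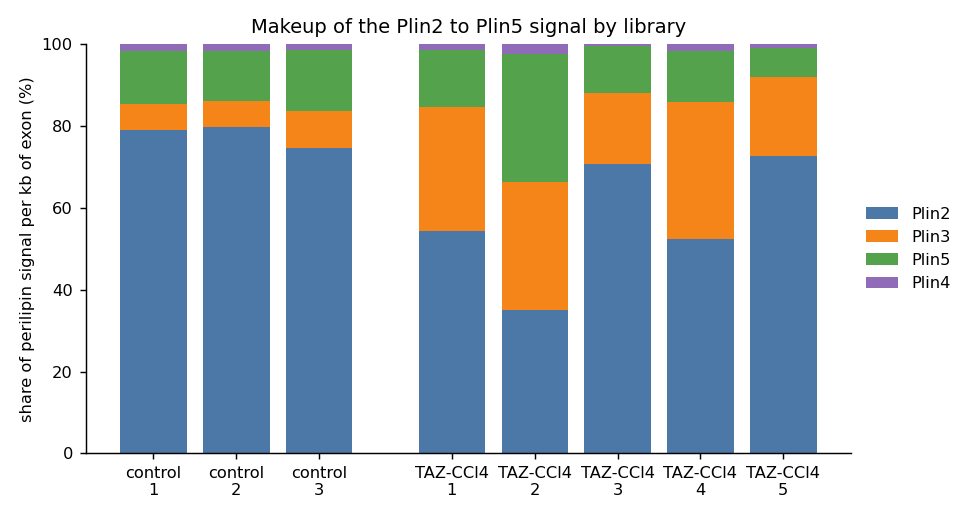
Share (y axis, %) of each perilipin in the summed Plin2 to Plin5 signal per kb of exon, for each of the 8 libraries (x axis). The Plin2 share is 74.6% to 79.7% in the controls and 35.0% to 72.7% in the TAZ-CCl4 libraries, and Plin3 and, in replicate 2, Plin5 take the difference.

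Plin3, Plin4 and Plin5 lie near each other on chromosome 17. Plin4 and Plin5 are 1797 bases apart with no annotated gene between, and Plin5 and Plin3 are 159879 bases apart with 11 annotated genes between. All 3 were highest in TAZ-CCl4 replicate 2, at 1.55 (Plin3), 2.72 (Plin4) and 3.30 (Plin5) times the mean of the other 4 TAZ-CCl4 libraries. The neighbouring genes were looked at after these values were seen. Of the 8 other tested genes from Hdgfl2 to Plin3, 5 were also highest in replicate 2, with ratios from 0.814 to 4.41 and a median of 1.27. The top ratio was that of Lrg1, the gene next to Plin5, an acute-phase glycoprotein, at 13591 in replicate 2 against a mean of 3080 in the others. Over all tested genes 21.1% were highest in replicate 2. Among the 9 tested members 5 were highest there, the other 2 being Cidec and Pnpla2, while Plin2 was below the mean of the others at 0.628 times.

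**Figure D4:**
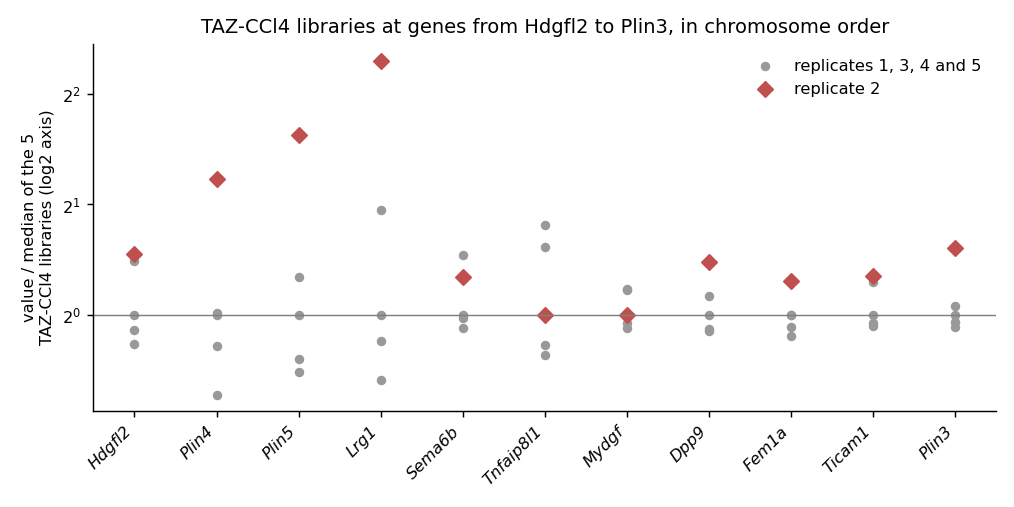
Value of each TAZ-CCl4 library divided by the median of the 5 (y axis, log2 scale) for the 11 tested genes from Hdgfl2 to Plin3 in chromosome order (x axis). Replicate 2 (diamonds) is the highest library for Plin4, Plin5, Lrg1 and Plin3 and for 4 of the 7 other genes.

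Cideb (chromosome 14, 55754050 to 55758458) is the CIDE protein of normal hepatocytes and takes part in lipid loading of VLDL. It was at 5502, 5668 and 6393 normalised counts in the controls. The TAZ-CCl4 libraries were at 1260, 2102, 2497, 2274 and 2118. The groups lay far apart, and the means were 5854 ± 474 (SD, n = 3) and 2050 ± 469 (SD, n = 5), 2.86-fold lower. The log2 fold change was -1.55 ± 0.20 (SE), with a limma adjusted p of 9.97e-05, and -0.30 without passing at equal totals. Nop9 on the opposite strand shares exonic sequence with Cideb and averaged 373 in the controls and 322 in the TAZ-CCl4 libraries. Per kb Cideb was the highest of the 10 members in both groups, at 3934 ± 318 (SD, n = 3) and 1378 ± 315 (SD, n = 5).

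Cidec (chromosome 6, 113424634 to 113435760), which enlarges droplets by fusion and is raised in fatty liver, was low in both groups. Control values were 47.8, 80.1 and 56.3 normalised counts, and TAZ-CCl4 values were 31.6, 55.5, 49.1, 21.1 and 17.2. The groups overlapped, since replicates 2 and 3 lay above the lowest control. The log2 fold change of -0.90 ± 0.42 (SE) had a limma adjusted p of 0.0832 and did not pass, and it was 0.32 at equal totals. It passed after quantile normalisation, at -1.85 with a limma adjusted p of 0.00502. Without TAZ-CCl4 replicate 2 it was -1.10 and passed as well, with a limma adjusted p of 0.0358.

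Cidea, best known from brown fat, was near the limit of detection. Its values were 18.9, 1.21 and 4.80 in the controls and 0.906, 10.3, 0, 9.81 and 5.45 in the TAZ-CCl4 libraries. No ordering of the groups was visible, and the mean of the controls was 8.30, and 3.0 without control replicate 1. The log2 difference was -0.55 (exact two-sided permutation p 0.607), and it was 0.35 at equal totals and 0.27 without control replicate 1. A difference was not detectable at this depth. Cideb thus supplied 98.9% to 99.2% of the CIDE signal per kb in the controls and 97.3% to 99.0% in the TAZ-CCl4 libraries. The ratios Cidec/Cideb and Cidea/Cideb had log2 differences of 0.65 (exact permutation p 0.25) and 0.99 (exact permutation p 0.393), with overlapping groups.

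G0s2 (chromosome 1, 193272161 to 193273217), the inhibitor of PNPLA2, lies within the span of Lamb3 on the other strand, with no shared exon. It was at 1586, 1757 and 866 normalised counts in the controls. The TAZ-CCl4 libraries were at 317, 442, 583, 337 and 279. Control replicate 3 was the lowest control and still above the highest TAZ-CCl4 library. The means were 1403 ± 473 (SD, n = 3) and 392 ± 123 (SD, n = 5), 3.58-fold lower, with a log2 fold change of -1.83 ± 0.28 (SE) and a limma adjusted p of 2.75e-04. At equal totals the change was -0.58, with a limma adjusted p of 0.0590 that did not pass.

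Pnpla2 (chromosome 7, 141455198 to 141460743), the lipase that G0S2 inhibits, had control values of 1512, 1550 and 1731 normalised counts. The TAZ-CCl4 values were 1476, 1781, 924, 1030 and 1041. Replicate 2 lay above all controls and replicates 3, 4 and 5 well below them. The log2 fold change of -0.40 ± 0.21 (SE) did not pass (limma adjusted p 0.123). Its sign depended on the scaling: it was 0.85 and higher at equal totals, 0.43 at equal totals with Mup and mitochondrial genes removed, and 0.03 after quantile normalisation. Without TAZ-CCl4 replicate 2 it was -0.54 and passed, with a limma adjusted p of 0.0184.

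Inhibitor and activator were also set against the lipase within each library. The ratio of G0s2 to Pnpla2 was 1.05, 1.13 and 0.5004 in the controls and 0.215, 0.248, 0.631, 0.327 and 0.268 in the TAZ-CCl4 libraries. Of the 5 TAZ-CCl4 ratios 4 were under every control and replicate 3 was not, a log2 difference of -1.43 (exact permutation p 0.0714, adjusted 0.190). Abhd5, the activator (chromosome 9, 122351608 to 122381524), fell from 880 ± 123 (SD, n = 3) to 449 ± 107 (SD, n = 5), by limma -0.99 ± 0.20 on the log2 scale (SE) with an adjusted p of 0.00175, and it was 0.26 at equal totals and did not pass. The ratio of Abhd5 to Pnpla2 had a log2 difference of -0.60 (exact permutation p 0.214) with overlapping groups. Thus neither ratio passed, while both partners of Pnpla2 fell at the deposited scaling.

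Pnpla3 (chromosome 15, 84167837 to 84187236), a lipase and acyltransferase relative of PNPLA2 on droplets and a well-known gene of inherited fatty liver risk in people, was the only member that rose. It was at 0.844, 5.74 and 10.6 normalised counts in the controls. The TAZ-CCl4 libraries were at 32.6, 36.02, 10.0, 76.2 and 48.3. Replicate 3 fell just under control replicate 3, and the other 4 lay above all controls. The log2 fold change was 2.74 ± 0.72 (SE), with a limma adjusted p of 0.00731, and 3.76 at equal totals. Its control mean of 5.73 was under the filter of 10, so it was tested only because its TAZ-CCl4 values were higher. A gene that enters in this way can hardly be called lower. These are low levels: the controls correspond to an estimated 0.448 to 8.85 reads each, so the size of the fold is poorly known. The log2 fold change was 1.98 without control replicate 1 (limma adjusted p 0.0341) and 3.31 without control replicate 3, where the control mean of 5.73 became 3.29. After quantile normalisation the change was 1.47, and the limma adjusted p of 0.0875 did not pass. An annotated noncoding gene, Gm49513, overlaps exons of Pnpla3 on the same strand and has no values used here.

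Set against Pnpla2 within each library, Pnpla3 was higher in every TAZ-CCl4 library than in any control. The ratio was 0.000558, 0.00371 and 0.00612 in the controls and 0.0221, 0.0202, 0.0109, 0.0739 and 0.0464 in the TAZ-CCl4 libraries, with no overlap. The log2 difference was 3.13 (exact permutation p 0.0357, adjusted 0.143). Pnpla2 nevertheless stayed far more abundant per kb, at 414 ± 121 against 26.2 ± 15.6 in the TAZ-CCl4 libraries (SD, n = 5). By level per kb Cideb, Plin2, G0s2 and Pnpla2 ranked 1 to 4 in both groups. Below them Plin5 (430 ± 31.0) and Plin3 (230 ± 9.91) ranked 5 and 6 in the controls (SD, n = 3), and Plin3 (299.97 ± 67.5) and Plin5 (184 ± 133) held ranks 5 and 6 in the TAZ-CCl4 libraries (SD, n = 5), where their ranges overlap through replicate 2. Pnpla3 went from rank 10 to rank 7.

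The genes with the most similar course over the 8 libraries were sought for the largest fall and the largest rise, by the root mean square difference of log2 values centred on the controls. For Plin2 they were Inhbc (0.103), Zbtb8os (0.188) and Ugt1a6a (0.200), among 11518 candidates. Like Plin2, these 3 genes had their highest TAZ-CCl4 values in replicates 3 and 5, which follows from choosing them by likeness over the same libraries. For Pnpla3 they were Limch1 (0.547), Itgb8 (0.599) and Rtn1 (0.663), among 11519 candidates, a looser likeness.

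Other genes of droplet metabolism were counted by lists. The shares over all tested genes to set beside these counts were 29.8% lower and 32.4% higher. At equal totals they were 6.37% lower and 76.3% higher, so the counts of higher genes at that scaling are not particular to these lists. Among 15 tested partners and other enzymes of lipolysis, 11 fell and the other 4 missed the threshold, and the list median was -1.10. At equal totals 4 were higher and 5 lower. Beside Abhd5, hormone-sensitive lipase Lipe fell from 389 ± 104 to 203 ± 30.2 and monoglyceride lipase Mgll, which completes triglyceride breakdown, from 2844 ± 223 to 421 ± 124 (SD, n = 3 and 5). The falls of Mgll were -2.80 ± 0.22 (SE) and at equal totals -1.55, both passing, whereas Lipe was at -0.91 ± 0.20 and at 0.33 without passing. The carboxylesterases Ces3a and Ces3b fell (log2 fold changes -9.61 and -9.48), from 71277 to 329 and from 24160 to 84.1. Without TAZ-CCl4 replicate 3, the highest of its group for both, the TAZ-CCl4 means were 124 and 29.1.

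Of 14 tested other droplet proteins, 8 fell and 1 rose, with a median of -0.59, and 8 were higher and 4 lower at equal totals. The gene that rose was Hilpda, a hypoxia-inducible inhibitor of PNPLA2, at 48.8, 45.6 and 34.6 in the controls and 169, 137, 134, 167 and 124 in the TAZ-CCl4 libraries. Its groups lay far apart, at 1.75 ± 0.21 on the log2 scale (SE) with a limma adjusted p of 5.84e-05, and 2.98 at equal totals. So the PNPLA2 inhibitors G0s2 and Hilpda went opposite ways at the deposited scaling. Hsd17b13, a droplet enzyme of hepatocytes, was at 6835 ± 1041 in the controls (SD, n = 3) and 6927 ± 1192 in the TAZ-CCl4 libraries (SD, n = 5) and did not pass (0.01 ± 0.17), though it was higher at equal totals (1.26, the median of all genes). Mettl7b and Nsdhl, a sterol synthesis enzyme, fell (-3.59 and -2.90). Plin1, the perilipin of fat cells, averaged 2.45 and 3.09 and was not tested.

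Of 9 tested genes of droplet formation, 5 fell and 1 rose (at equal totals 1 was lower and 6 higher). Fitm1, which partitions triglyceride into droplets, went from 1180 ± 234 (SD, n = 3) to 6.61 ± 3.69 (SD, n = 5), by limma -7.42 ± 0.45 on the log2 scale (SE) with an adjusted p of 9.86e-07. Tmem159, which encodes the seipin partner LDAF1 or promethin, rose by 2.04 ± 0.31 from 26.9 to 108. Of 14 tested genes of triglyceride synthesis, 7 fell and 2 rose (at equal totals 3 were lower and 9 higher). Lpin1, a phosphatidate phosphatase, fell by 3.24 from 4055 to 396, and Mogat2, a monoacylglycerol acyltransferase, rose by 4.64 from 2.95 to 133, where 399.7 in replicate 2 was far above the 49.7 to 91.3 of the other 4, whose mean was 66.3.

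Of 10 VLDL assembly genes, 8 fell and 2 did not pass (at equal totals 3 were lower and 2 higher), with Apoc3 at -4.77 and Apoa4 at -2.33. Apoc3 was also lower at equal totals (-3.52), and Apoa4 did not pass there (-1.08, limma adjusted p 0.0786). Of 14 regulators of these programmes, 10 fell and 4 did not pass (at equal totals 1 was lower and 4 higher). Without control replicate 2 the number that fell was 6. Among them Ppara, the fasting receptor that drives Plin2 and Plin5 in liver, went from 848 ± 216 to 473 ± 221 (-0.95 ± 0.38, limma adjusted p 0.0470), with overlapping groups. The call on Ppara was lost when any of 5 of the 8 libraries was left out, namely control replicates 2 and 3 and TAZ-CCl4 replicates 3, 4 and 5, with limma adjusted p values of 0.0591 to 0.162. Pparg, which drives Cidec and Plin4 in fat, went from 241 ± 44.3 to 90.7 ± 24.8 (-1.43 ± 0.26, limma adjusted p 8.31e-04). Neither passed at equal totals (0.30 and -0.19). Mlxipl and Creb3l3 fell (-2.02 and -1.65). Mlxipl was also lower at equal totals (-0.76), and Creb3l3 did not pass there (-0.40, limma adjusted p 0.189). Of 10 genes of droplet autophagy and lysosomes, 6 fell and 4 did not pass (at equal totals 2 were lower and 6 higher), led by Lamp2 (-1.66) and Atg5 (-1.60).

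**Figure D5:**
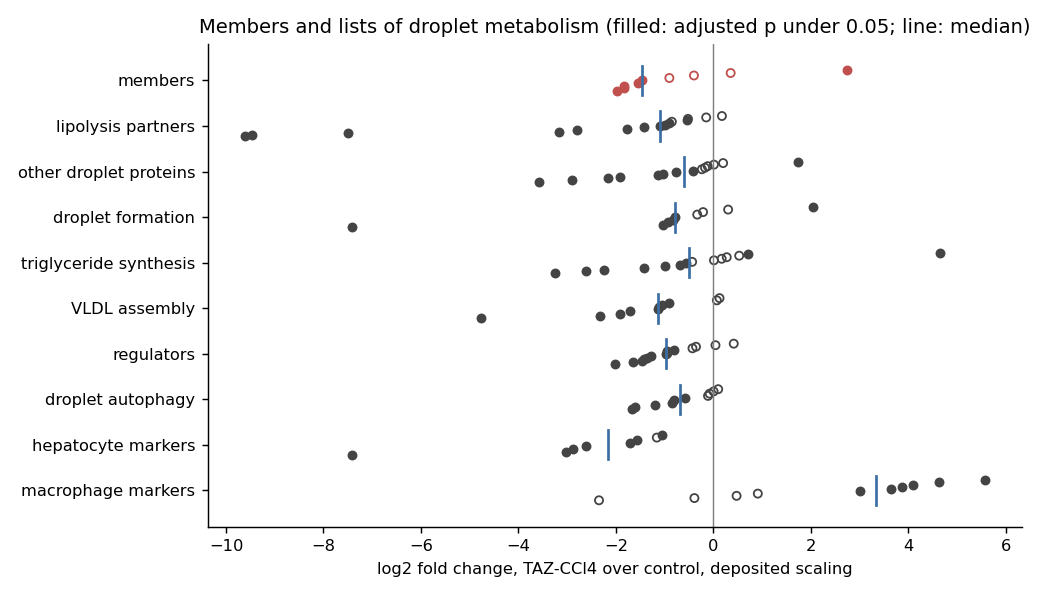
Log2 fold change of TAZ-CCl4 over control at the deposited scaling (x axis) for each tested gene of the members and of 9 lists (y axis). Filled points passed the limma test, open points did not, and vertical lines are list medians. The 7 lists of droplet metabolism have medians from -1.13 to -0.50, the members -1.45, the hepatocyte markers -2.16 and the macrophage markers 3.33.

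Cell type markers moved beside these genes. In whole liver tissue fewer cells of a type and less RNA per cell cannot be told apart. Of 8 hepatocyte markers 7 fell. At the deposited scaling their summed level was 1941780 to 2429020 in the controls and 681840 to 1003310 in the TAZ-CCl4 libraries. Library totals differed in the same direction, at 29.8 to 35.1 M and 12.4 to 14.2 M, and the sum was not computed at equal totals. At equal totals 4 of the 8 were lower and 4 did not pass. Alb, the most abundant, did not pass (-1.16 ± 0.73 by limma, adjusted p 0.190), but was lower in limma without trend (adjusted p 0.00129). At equal totals Alb was at 0.09 and did not pass. Of 10 macrophage markers 6 rose (8 at equal totals), with Lyz2 going from 413 to 7068. The sum of the 10 was 1617 to 2845 in the controls and 9609 to 18371 in the TAZ-CCl4 libraries. Clec4f, Cd5l, Marco and Spic did not pass, and their groups overlapped. Clec4f averaged 826 in the controls and 344 in the TAZ-CCl4 libraries (-2.35, limma adjusted p 0.0725), so the list did not move as a whole. All 8 biliary markers rose, led in level by Spp1 (1855 to 56155), as did all 5 tested neutrophil markers, Csf3r from 30.5 to 251, and both counts were the same at equal totals. The neutrophil markers S100a8, Retnlg and Mmp8 and the biliary marker Cftr had control means under the filter of 10. They were tested only through their TAZ-CCl4 values and could hardly be called lower, so these counts were partly set by the filter. Of 10 stellate markers 4 rose, and 7 at equal totals. Over all tested genes 32.4% were higher and 29.8% lower, and at equal totals 76.3% were higher and 6.37% lower. The stellate counts, and the macrophage count at equal totals, lie near the shares higher over all tested genes. Dcn, at 1796 in the controls and 1999 in the TAZ-CCl4 libraries, did not pass (0.19), but was higher at equal totals (1.44) and after quantile normalisation (0.72). Of the 9 adipocyte markers 4 were tested. Fabp4 rose from 145 to 420 and Cfd, Adrb3 and Lipe fell, of which Lipe did not pass at equal totals, while Adipoq, Lep, Plin1, Retn and Ucp1 averaged at most 3.09 in either group. The part of these shifts in the values of the members was not tested. Wwtr1, the gene of the TAZ construct, was at 280 to 463 in the controls and 4339 to 9021 in the TAZ-CCl4 libraries.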

How the data were processed

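The authors deposited 1 table of a normalised count signal for 35204 gene symbols in 8 libraries. Its name gives kallisto and DESeq2, and DESeq2 and mm10 are also named per the submitters' processing notes. The sources used here do not give the transcript annotation, versions or use of strand. Whole reads were not recovered, since taking the commonest step among values below 10 as 1 read made 47.3% to 66.8% of them whole within 0.03, so no count model was run. That step gives an estimated 12.4 to 33.8 M reads per library. For genes averaging over 100 in a pair of replicates, the median squared difference was at least 4.93 times that of counting noise alone. No label says that the libraries are from different mice. The p-values therefore measure only the spread between these libraries, part of which may be technical. Controls and TAZ-CCl4 libraries belong to different library projects per the labels, so project and group cannot be told apart.

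Genes with a mean of at least 10 were compared with limma 3.58.1 (R 4.3.3, with trend) on log2(value + 1), which understates changes of low genes, with Benjamini-Hochberg adjustment and a threshold of 0.05. Tested genes with a control mean under 10, such as Pnpla3 and Mogat2, passed the filter only through their TAZ-CCl4 values. Ratios of members and Cidea used exact two-sided permutation tests. Positions and exon lengths came from GENCODE M21 and promoter windows from RefSeq. On simulated data with 200 of 14111 genes changed, the limma test recovered 10% of 1.5-fold, 42% of 2-fold and 82% of 4-fold changes. Of the 120 calls there, 9 were false. In the real data 62.3% of tested genes were called, and with so many changed genes the adjustment is less strict. The simulated shares therefore need not hold here, though changes of 2-fold or less may still be missed. Alternatives were 4 other scalings, pseudocounts of 0.5 and 10, no filter or a mean of at least 50, limma without trend or with a robust prior, and leaving out each library.

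The members, the 13 lists and the motifs were chosen with earlier results of these data known. The text names all members, 8 fixed partners, from each metabolic list the 2 changed genes of largest fold change whose higher group mean is 50 or more, the most abundant gene of each cell type list, and the 3 nearest genes to the largest rise and fall. Lrg1, Hdgfl2, Nop9 and other genes outside this rule were named after their values were seen.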

Additional observations from a re-analysis of the deposited data

Results flagged for a closer look

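In the 5 TAZ-CCl4 libraries, 3 members had a highest value whose distance to the next library exceeded Dixon's limit at 95% for a group of 5. All were in replicate 2: Plin3 at 1583 (0.776 of the range), Plin4 at 192 (0.767) and Plin5 at 867 (0.761). Chance marks about 1 in 20 such groups, and 10 members and 8 ratios were looked at. Plin4 and Plin5 are adjacent on chromosome 17, and Plin3 lies 159879 bases from Plin5 with 11 annotated genes between. The cause was not tested.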

How the results depend on the processing

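No paired analysis was possible because the TAZ-CCl4 labels are running sample names that do not pair with the control numbers. Of the alternatives of member fold changes, 144 kept direction and side of the threshold, 6 gained and 6 lost the call, and 4 changed sign. Members higher (1) became 3 at equal totals, 2 at equal totals after removing Mup and mitochondrial genes, and 0 by limma with a mean of at least 50, where Pnpla3 was not tested (0 also at an unadjusted p under 0.05). After quantile normalisation 1 member was higher as well, but it was Plin3 and not Pnpla3. Members lower (5) became 1 at equal totals and 7 without TAZ-CCl4 replicate 2, and were 5 without any other library. They became 4 at equal totals after removing Mup and mitochondrial genes, where Plin5 lost its call. After quantile normalisation they became 6, where Cidec gained one. Cidec changed sign at equal totals (0.32). Pnpla2 changed sign at equal totals (0.85), after also removing Mup and mitochondrial genes (0.43) and after quantile normalisation (0.033). Cidea changed sign at equal totals (0.35), and leaving out single libraries gave -1.31 to 0.27. The Plin4/Plin2 difference ranged from -0.26 to 0.51 when single libraries were left out, and the 87 other ratio values kept direction. None of the 8 ratios passed after adjustment in any of the 11 alternatives. With all 8 libraries, 2 ratios had an exact permutation p under 0.05 before adjustment. With a library left out, too few splits remain for any exact permutation p under 0.05. Those alternatives could therefore show a change of direction but not of the call. Depth limits Pnpla3 and Cidea, which rest on few reads per control.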
